A study of Mus musculus with 8 samples.

Results

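Glycolysis and hypoxia response genes were followed as 1 group of 35 genes, of the 24306 gene symbols with a usable estimate in all 8 libraries. The members were chosen by symbol from known biology, with results of these libraries already known. They comprise 23 genes of glucose uptake, the glycolytic enzymes, lactate handling and the kinases that control entry and exit of the pathway, and 12 genes best known as targets of the response to low oxygen. RNA was sequenced from mouse E14 cells, an established embryonic stem cell line, as embryonic stem cells (ESC) and as neural progenitor cells (NPC) derived from them. Each stage has a wild-type and a Wdr68 knockout group (the tables list Wdr68 as Dcaf7), with 2 libraries in each of the 4 groups. The series title links WDR68 to the PRC1-AUTS2 Polycomb complex and to stem cell differentiation. The method by which the knockout was made and the number of clones are not given in the sources used here.

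All groups share the E14 background. ESC were grown with serum, leukaemia inhibitory factor (LIF) and inhibitors of MEK and GSK3, on mouse fibroblast feeders or on gelatin. For the NPC groups, cells were first moved off feeders, then formed embryoid bodies in hanging drops of 500 cells for 2 days in medium listed without LIF or the inhibitors, after which they floated for another 2 days and received retinoic acid for the last 4 days. No oxygen treatment is named for any group.

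Cells take up glucose through transporters of the Slc2a family and break it down to pyruvate, which is either reduced to lactate and exported or oxidised in mitochondria. When oxygen is scarce, prolyl hydroxylases of the Egln family and the VHL ligase no longer remove the alpha subunits of hypoxia-inducible factor (HIF), which pair with ARNT, bind DNA at a short core sequence and raise transcription of transporters, glycolytic enzymes, Vegfa, Bnip3 and the Egln genes themselves. Pluripotent stem cells are known for high glycolysis, and neural differentiation for a shift of isozymes such as HK2 and LDHA towards a more oxidative metabolism.

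The HIF core can be read in the DNA before the start sites of these genes, so the 250 bases before the start are shown for 5 members that fell in knockout NPC (Slc2a1, Pgk1, Ldha, Bnip3 and Egln1), for Tpi1, which fell and holds neither core, and for Ddit4, which did not pass the test and holds both. Capitals mark ACGTG or GCGTG on either strand (CACGT and CACGC are the same cores read on the other strand), and the 6 letters CACGTG count once on each strand. Sequences are from RefSeq promoters on GRCm38.p6, a later build than the mm9 of the expression tables, and read 5′ to 3′ towards the gene.
Slc2a1, chr4:119108495-119108744, plus strand: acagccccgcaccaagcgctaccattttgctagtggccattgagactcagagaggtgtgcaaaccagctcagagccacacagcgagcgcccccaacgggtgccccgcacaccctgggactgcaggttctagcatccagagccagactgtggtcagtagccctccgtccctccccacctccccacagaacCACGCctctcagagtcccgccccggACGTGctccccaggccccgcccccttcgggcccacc
Pgk1, chrX:106186850-106187099, plus strand: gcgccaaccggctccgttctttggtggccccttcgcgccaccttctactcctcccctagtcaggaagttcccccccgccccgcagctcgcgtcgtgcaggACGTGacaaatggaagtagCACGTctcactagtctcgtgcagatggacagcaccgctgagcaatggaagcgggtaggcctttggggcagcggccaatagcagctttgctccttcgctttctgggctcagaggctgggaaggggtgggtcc
Ldha, chr7:46845554-46845803, plus strand: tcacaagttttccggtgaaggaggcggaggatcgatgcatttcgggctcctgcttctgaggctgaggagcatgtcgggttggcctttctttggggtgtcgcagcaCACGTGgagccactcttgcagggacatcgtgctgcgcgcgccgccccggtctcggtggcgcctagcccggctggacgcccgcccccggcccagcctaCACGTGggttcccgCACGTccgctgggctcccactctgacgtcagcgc
Bnip3, chr7:138909507-138909756, minus strand: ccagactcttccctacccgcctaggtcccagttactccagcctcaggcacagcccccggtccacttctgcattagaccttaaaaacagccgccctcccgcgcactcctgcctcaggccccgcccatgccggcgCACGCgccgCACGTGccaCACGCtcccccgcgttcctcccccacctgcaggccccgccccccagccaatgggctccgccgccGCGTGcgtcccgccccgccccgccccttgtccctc
Egln1, chr8:124949255-124949504, minus strand: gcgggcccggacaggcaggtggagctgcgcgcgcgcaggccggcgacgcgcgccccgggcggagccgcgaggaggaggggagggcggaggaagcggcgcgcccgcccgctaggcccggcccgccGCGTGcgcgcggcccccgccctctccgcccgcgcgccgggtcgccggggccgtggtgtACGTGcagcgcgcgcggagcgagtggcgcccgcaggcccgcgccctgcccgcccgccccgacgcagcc
Tpi1, chr6:124814159-124814408, minus strand: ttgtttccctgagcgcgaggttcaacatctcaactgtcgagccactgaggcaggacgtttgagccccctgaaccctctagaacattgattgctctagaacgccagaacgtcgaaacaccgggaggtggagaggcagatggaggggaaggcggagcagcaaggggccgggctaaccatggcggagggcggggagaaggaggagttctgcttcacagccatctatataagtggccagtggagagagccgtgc
Ddit4, chr10:59951771-59952020, minus strand: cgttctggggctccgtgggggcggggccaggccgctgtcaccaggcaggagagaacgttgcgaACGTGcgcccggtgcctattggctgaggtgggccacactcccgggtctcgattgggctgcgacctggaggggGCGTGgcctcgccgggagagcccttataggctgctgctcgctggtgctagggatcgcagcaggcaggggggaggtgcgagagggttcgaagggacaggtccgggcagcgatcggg
The sequence before Ldha, at the first of its 2 listed starts, held 5 matches to ACGTG, counting both strands. Those before Pgk1 and Bnip3 held 2 each, and those before Slc2a1, Egln1 and Ddit4 held 1 each. Of the 35 members, 32 were in the promoter table, and Slc2a3, Bnip3l and Ndrg1 were not. In windows of 300 bases, from 250 before to 50 after the start, ACGTG lay in at least 1 promoter of 22 of the 32 members (68.8%) and GCGTG in 23 (71.9%), against 21.8% and 35.2% of 27025 genes. Either core was found for 29 members (90.6%), against 46.7% of all genes. The 16 matched members that fell in knockout NPC held a core in 14 cases (87.5%), and the 15 other matched members that were tested held one in 14 (93.3%). Member promoters were richer in G and C (median 62.3%, against 52.7% for all promoters), and ACGTG is part of the CACGTG E-box, so these shares describe letters and not HIF binding.

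Levels are given as FPKM (read fragments, normalised for transcript length and library size), so genes can be compared with each other. Differences are on the scale of log2(FPKM + 1), ± standard error from limma, which understates the change of genes with low FPKM. A gene passed when its Benjamini-Hochberg adjusted p over the 13318 genes tested was under 0.05. The deposited confidence intervals implied 5996677 to 7942644 fragments per library. Whether duplicates came from separate cultures is not stated. The p-values therefore reflect no more than the variation between duplicate libraries, possibly technical. Dcaf7 was lower in every knockout library (2.26 to 2.80 in ESC, 8.36 and 8.99 in NPC) than in any wild-type library (12.4 and 14.2 in ESC, 27.2 and 29.6 in NPC).

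The knockout libraries labelled NPC did not carry the marker pattern of the wild-type NPC. Summed FPKM of 6 neural progenitor markers was 180 to 182 in wild-type NPC and 31.2 to 32.3 in knockout NPC, where 5 of the 6 passed as lower. Hes5 reached an FPKM of 1 only in wild-type NPC (14.1 and 19.3), so its fall was favoured in advance and carries little weight. The sum of 81.7 to 97.7 in ESC was mostly Sox2 (mean 88.1 in wild type and 77.5 in knockout), so it is no measure of neural progenitors there. From knockout ESC to knockout NPC, 4 of the 6 passed as higher and 2 as lower. Nes was largely kept, at 29.8 and 30.2 in wild-type NPC and 25.4 and 22.4 in knockout NPC. For 5 neuronal markers the sum went from 302 to 320 in wild type to 10.9 to 16.1 in knockout, with all 5 lower. Elavl3 reached an FPKM of 1 in both libraries of wild-type NPC only (23.1 and 24.4), which favoured its fall in the same way. Summed markers of primitive erythroid cells stood at 84.8 to 113 in wild-type NPC and 837 to 1033 in knockout NPC, those of endothelium at 7.92 to 8.41 and 25.7 to 26.5, and those of extraembryonic endoderm at 9.63 to 13.4 and 44.7 to 55.4. The last sum was mostly Gata4 (mean 2.66 and 26.8) and Gata6 (6.71 and 19.3). Sox17 went the other way (1.26 and 0.454), and Afp and Ttr were too low to be tested, so these markers do not together show extraembryonic endoderm. The erythroid sum was mostly the globins Hba-x (mean 47.4 and 478), Hbb-bh1 (24.3 and 233) and Hbb-y (26.0 and 218). Gata1 and Klf1 stayed under an FPKM of 1 and were not tested. Cardiac markers summed to 0.850 to 1.07 and 7.69 to 9.10, and feeder fibroblast markers to 89.2 to 100.5 and 65.8 to 75.9. The feeder fibroblast sum was only 1.18 to 1.43 in wild-type ESC and 0.881 to 0.946 in knockout ESC, so it does not show feeder cells in NPC. In NPC it was mostly Col3a1 (mean 49.4 and 39.1), Col1a1 (21.2 and 12.2) and Col1a2, which went the other way (13.0 and 17.9). The cardiac rise came from Tnnt2 (mean 0.254 and 5.81) and Myl7, the only 2 of 6 tested, and Actc1 went the other way (0.552 and 0.313). Tnnt2 reached an FPKM of 1 only in knockout NPC (6.10 and 5.52), so its rise was favoured in advance. In ESC the cardiac sum was higher, at 18.5 to 19.1 in wild type and 14.3 to 18.9 in knockout, mostly Myl7. The endothelial sum was 24.5 to 25.8 in knockout ESC, mostly Pecam1, so neither sum alone is specific to its cell type. All 5 endothelial markers passed as higher in knockout NPC than in wild-type NPC. Tie1 reached an FPKM of 1 in both libraries of knockout NPC only (4.12 and 4.38), which favoured its rise. Pluripotency markers were at 6.20 to 9.47 in all NPC libraries, against 1836 to 1898 in ESC. In wild-type NPC the erythroid gene Gata1 and the cardiac gene Myl7 were listed at 0 in both libraries, and no marker was in knockout NPC. The part of this different make-up in the values below was not tested. In bulk RNA, fewer cells that express a gene and less RNA per cell cannot be told apart.

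Of the 35 members, 34 reached an FPKM of 1 in at least 2 libraries and were tested. None of them reached it in both libraries of only 1 group. Car9, a carbonic anhydrase widely used as a marker of hypoxia, did not, and stood between 0 and 0.229. Mean FPKM of 9 members was at least 100 in some group, and 10 members stayed under 10 in every group. Among tested members with 1 start site, the fewest implied fragments were 13.0 for Ndrg1 and 14.1 for Ankrd37, so their values are the least precise.

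**Figure D1:**
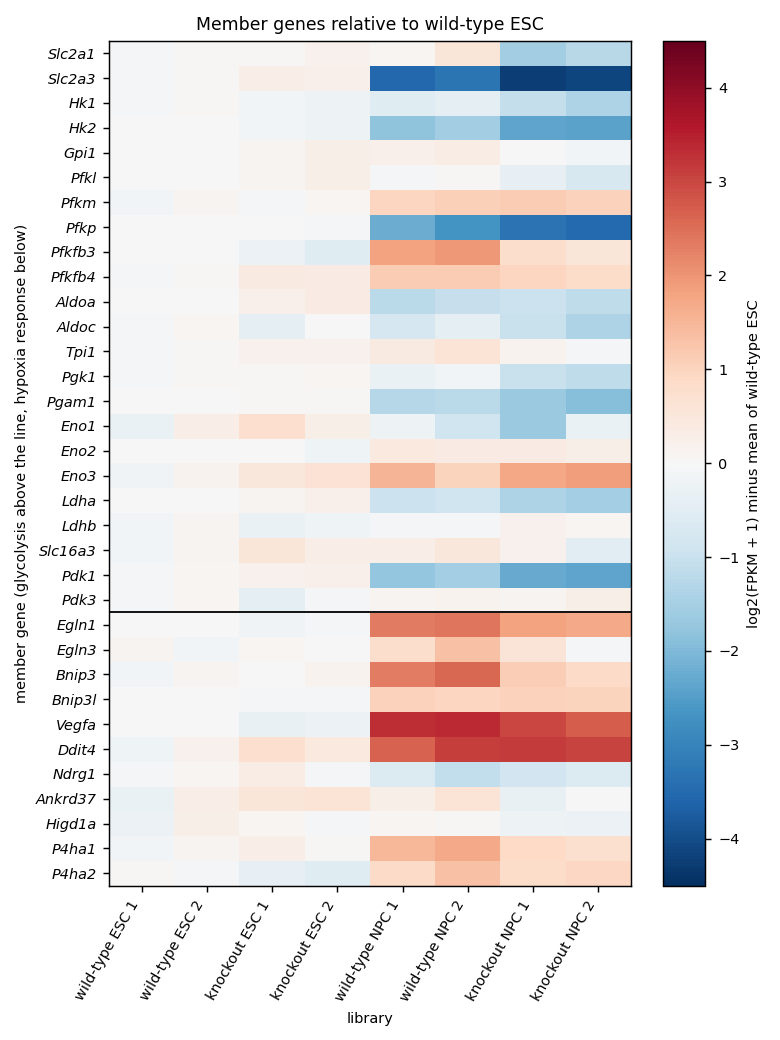
Heat map of the 34 tested members (rows, glycolysis above the line and hypoxia response below) in the 8 libraries (columns); colour gives log2(FPKM + 1) minus the mean of wild-type ESC. Slc2a3, Pfkp, Hk2 and Pdk1 are blue in all NPC libraries and darker in knockout, whereas Vegfa, Ddit4, Egln1 and Bnip3 are red in NPC.

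The comparison of knockout with wild-type NPC asks which members depend on the knockout after differentiation. Of the 34 members, 17 fell and none rose. Among all genes tested, 12.7% were lower and 14.7% higher by the same rule. Glucose uptake, the hexokinases, phosphofructokinases, the enzymes from triose phosphate to phosphoglycerate and lactate dehydrogenase A were all represented among the genes that fell (13 of 23 glycolysis members), with 4 of 11 hypoxia response members. The median change was -0.54 over the 34 members, -0.54 over the glycolysis members and -0.48 over the hypoxia response members, against 0.05 over all genes.

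Both glucose transporters among the members fell. Slc2a1, which encodes the widely expressed transporter GLUT1 (chromosome 4, 118781350 to 118809934 in mm9), stood at 69.3 and 94.8 in wild-type NPC and at 21.2 and 27.1 in knockout NPC. The wild-type libraries lay apart from each other, both knockout libraries lay far below them, and the mean level was 70.6% lower on average (-1.72 ± 0.16, adjusted p = 4.16e-04). Slc2a3, the gene of the high-affinity transporter GLUT3 (chromosome 6, 122677827 to 122692763), was at 29.2 and 34.9 in wild type and at 17.9 and 19.0 in knockout (-0.76 ± 0.09, adjusted p = 0.00112). The groups did not overlap for either gene.

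Hexokinases trap glucose in the cell as its phosphate. Hk2, the inducible isozyme, was at 19.6 and 23.4 in wild-type NPC and at 13.1 and 12.7 in knockout NPC, with the knockout pair close together and below both others (-0.69 ± 0.09, adjusted p = 0.00189). Hk1, the constitutive isozyme, went from a mean of 6.40 ± 0.439 (SD, n = 2) to 3.44 ± 0.729 (-0.75 ± 0.14, adjusted p = 0.00698). Gpi1, the isomerase of the next step, went from 161 ± 9.76 to 128 ± 7.18 (-0.33 ± 0.08, adjusted p = 0.0175).

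Phosphofructokinase commits sugar to glycolysis, and 2 of its 3 subunit genes fell. Pfkp, the platelet-type subunit, went from 5.00 ± 1.33 to 2.07 ± 0.250 (-0.95 ± 0.15, adjusted p = 0.00397) and Pfkl, the liver-type subunit, from 26.0 ± 1.57 to 17.6 ± 3.02 (-0.54 ± 0.12, adjusted p = 0.0150). Pfkm, the muscle-type subunit, stood at 13.4 ± 0.816 and 13.9 ± 0.767 and did not pass (adjusted p = 0.815). Pfkfb3 makes fructose 2,6-bisphosphate, the strongest activator of phosphofructokinase. It was at 8.38 and 9.31 in wild-type NPC and at 3.72 and 2.97 in knockout NPC, both well below the wild-type pair (-1.18 ± 0.15, adjusted p = 0.00140). Pfkfb4, a related enzyme, was at 3.01 ± 0.0116 and 2.38 ± 0.186 and did not pass (adjusted p = 0.153).

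Among the enzymes after the split into triose phosphates, Pgk1 had the largest fall. This kinase makes the first ATP of glycolysis, and its gene (chromosome X, 103382439 to 103399038) was at 279.9 and 320.3 in wild-type NPC and at 172 and 157 in knockout NPC (-0.86 ± 0.09, adjusted p = 6.07e-04). Pgam1, which moves the phosphate within phosphoglycerate, was at 157 and 166 in wild type and at 119.5 and 102 in knockout (-0.54 ± 0.08, adjusted p = 0.00358). Tpi1, the triose phosphate isomerase, went from 237 ± 24.1 to 174 ± 15.2 (-0.44 ± 0.10, adjusted p = 0.0142). Neither aldolase passed. Aldoa, the main isozyme, was at 228 and 258 in wild type and 271 and 236 in knockout, with overlapping groups (0.06 ± 0.10, adjusted p = 0.702), and the minor isozyme Aldoc stood at 1.64 ± 0.437 and 0.731 ± 0.343 (adjusted p = 0.0795).

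Lactate dehydrogenase showed opposite signs for its 2 genes. Ldha, whose subunit favours lactate formation (chromosome 7, 54101174 to 54110997), was at 290.5 and 304 in wild-type NPC and at 212 and 195 in knockout NPC, with little spread in either group (-0.54 ± 0.07, adjusted p = 0.00171). Ldhb, whose subunit favours the reverse reaction, stood at 120.1 ± 0.858 and 139 ± 6.40 and did not pass (0.21 ± 0.09, adjusted p = 0.156). Slc16a3, the lactate exporter MCT4, was at 11.8 and 13.97 in wild type and 10.96 and 6.35 in knockout and did not pass (adjusted p = 0.118). Pyruvate dehydrogenase kinases inhibit pyruvate dehydrogenase and so hold back the oxidation of pyruvate in mitochondria. Pdk1 was at 8.48 and 10.2 in wild-type NPC and at 5.68 and 5.12 in knockout NPC (-0.69 ± 0.11, adjusted p = 0.00382), while Pdk3 stood at 19.3 ± 0.266 and 20.2 ± 1.68 (adjusted p = 0.807).

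**Figure D2:**
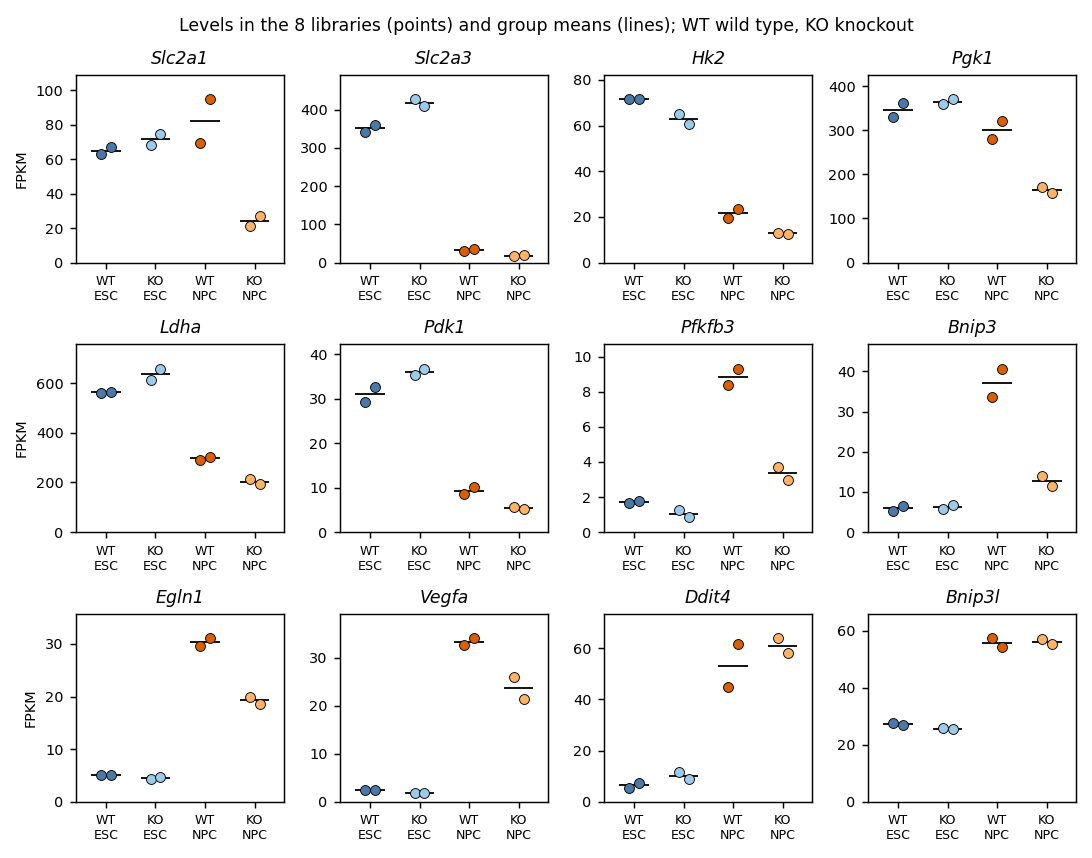
FPKM of 12 members in each library (points) and the mean of each group (lines), with a separate linear axis from 0 for each gene. For Slc2a1 and Bnip3, the knockout NPC points (21.2 and 27.1, 13.9 and 11.5) lie far below the wild-type NPC points, whereas the NPC points of Bnip3l and Ddit4 overlap between genotypes.

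Among the hypoxia response members, Bnip3 had the largest fall. It encodes a mitochondrial protein of mitophagy and cell death (chromosome 7, 146082519 to 146101189). Its level was 33.5 and 40.7 in wild-type NPC and 13.9 and 11.5 in knockout NPC, which is 65.8% lower (-1.48 ± 0.15, adjusted p = 5.60e-04). Its close relative Bnip3l stood at 57.4 and 54.1 in wild type and at 56.9 and 55.4 in knockout, with overlapping groups (0.01 ± 0.06, adjusted p = 0.931). Egln1, the main oxygen-sensing prolyl hydroxylase (chromosome 8, 127432487 to 127473154), was at 29.5 and 31.1 in wild type and at 19.8 and 18.7 in knockout (-0.63 ± 0.08, adjusted p = 0.00196). P4ha1, a subunit of collagen prolyl hydroxylase, was at 14.7 and 17.2 in wild type and at 9.39 and 8.26 in knockout (-0.79 ± 0.14, adjusted p = 0.00664). Vegfa, the main growth factor for blood vessels, was at 32.6 and 34.1 in wild type and at 26.0 and 21.4 in knockout (-0.48 ± 0.11, adjusted p = 0.0186). For Bnip3, Egln1, P4ha1 and Vegfa, both knockout libraries lay below both wild-type libraries.

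The 17 members that did not pass had changes from -0.79 for Egln3 to 0.54 for Eno3. Egln3, another prolyl hydroxylase, was at 2.96 and 4.70 in wild-type NPC and 2.40 and 1.21 in knockout NPC (adjusted p = 0.0552). Eno3, the muscle enolase, was the member with the largest positive value, at 15.4 and 10.6 in wild type and 18.1 and 20.0 in knockout (adjusted p = 0.0731). Ddit4, an inhibitor of mTORC1 induced by hypoxia and other stresses, was at 44.9 and 61.5 in wild type and 64.0 and 58.2 in knockout (adjusted p = 0.472). Ankrd37, Higd1a, P4ha2, Ndrg1 and Eno2 had adjusted p from 0.101 to 0.715.

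Leaving out 1 library in turn gave 12 to 19 members passing. Gpi1, Pfkl and Tpi1 no longer passed without wild-type NPC replicate 2 (adjusted p = 0.101, 0.0876 and 0.0814) or without knockout NPC replicate 2 (adjusted p = 0.101, 0.0601 and 0.0841). P4ha1 was lost without wild-type NPC replicate 2 (adjusted p = 0.0502), and Vegfa without wild-type NPC replicate 1 or 2 or knockout NPC replicate 2 (adjusted p = 0.0671, 0.101 and 0.103). Slc2a1, Slc2a3, Hk1, Hk2, Pfkp, Pfkfb3, Pgk1, Pgam1, Ldha, Pdk1, Bnip3 and Egln1 passed as lower in every alternative fit that tested them. Without wild-type NPC replicate 1, Eno3 passed as higher (0.79, adjusted p = 0.0292) and Egln3 as lower (-1.06, adjusted p = 0.0497). Without knockout NPC replicate 1, Egln3 (-1.11, adjusted p = 0.0325) and Slc16a3 (-0.91, adjusted p = 0.0210) passed as lower. Higd1a passed as lower without either wild-type ESC library (adjusted p = 0.0438 and 0.0455).

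Enolase needs its own account, because the entry for Eno1 shares its locus with another. Eno1 (chromosome 4, 149611306 to 149622982 in mm9) was at 137 and 84.8 in wild-type NPC and at 49.95 and 131 in knockout NPC, so the duplicates scattered and the groups overlapped, and it did not pass (-0.41 ± 0.46, adjusted p = 0.565). Eno1b has an entry inside the same locus, from 149611433 to 149622982, and the entries under that symbol summed to 351 to 1456 in the 8 libraries, far more than Eno1. Fragments from the shared exons could have been divided between them, so neither value alone is certain. Added together, a sum chosen after the values were seen, the entries gave 816 and 866 in wild-type NPC and 480.01 and 482 in knockout NPC, and the duplicates then lay close together. The sum fell in knockout NPC (-0.80 ± 0.09, adjusted p = 7.88e-04). In ESC it was 1226 and 1378 in wild type and 1486 and 1650 in knockout and did not pass (0.27 ± 0.09, adjusted p = 0.301). The difference between both knockout effects passed for the sum (-1.07 ± 0.13, adjusted p = 0.00216). On differentiation the sum fell in wild type (-0.63 ± 0.09, adjusted p = 4.93e-04) and in knockout (-1.70 ± 0.09, adjusted p = 3.77e-06).

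**Figure D3:**
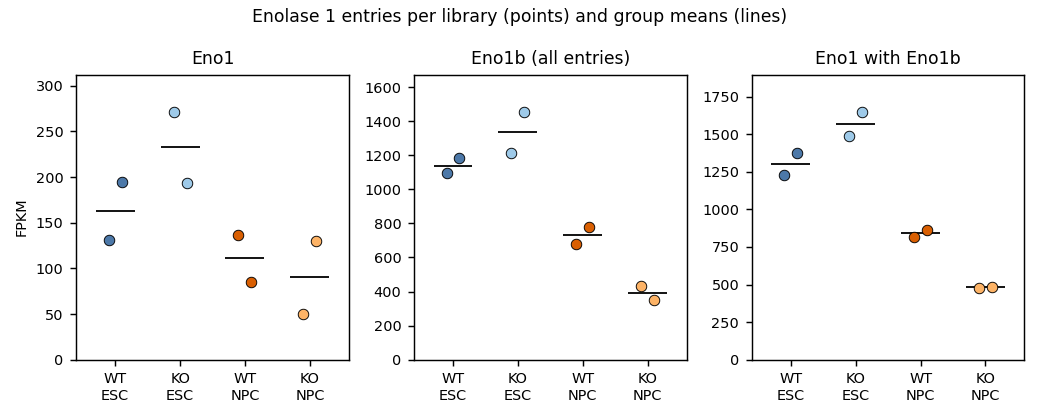
FPKM of Eno1, of the entries named Eno1b and of their sum in each library (points), with group means (lines), on separate linear axes from 0. Eno1 scatters between duplicates, and Eno1b does so less for its level (679 and 781 in wild-type NPC). The sum lies at 816 and 866 in wild-type NPC and at 480.01 and 482 in knockout NPC.

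Other members with overlapping neighbours were Hk1 (Hk1os, at most 1.46), Pfkm (Senp1, 9.04 to 11.8), Pfkp (Pitrm1, 24.1 to 36.8), Tpi1 (Spsb2, 1.36 to 6.20) and Ankrd37 (Ufsp2, 12.0 to 21.6). The library kit is directional, but the strand setting of the counting is not given in the sources used here, so reads of these neighbours cannot be fully told apart from the member's. Aldoart1, a retrogene copy of Aldoa, was at 1.83 to 5.56, small beside Aldoa.

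Knockout and wild-type ESC were compared to see whether the genes differ before differentiation. No member passed by limma (lowest adjusted p = 0.269), while 12 of 34 had an unadjusted p under 0.05, and 0.128% of all genes passed as higher and 0.12% as lower. Of all 13318 genes, 1686 had an unadjusted p under 0.05. Both knockout libraries lay above both wild-type libraries for 14 members and below both for 8, against 19.5% and 24.7% of all genes tested. The median change was 0.07 over the members (0.13 over the glycolysis members and 0.04 over the hypoxia response members), against -0.01 over all genes.

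The 6 largest values in ESC, none of which passed, belonged to Ddit4, Eno3, Ankrd37, Eno1, P4ha2 and Slc16a3. Ddit4 was at 5.41 and 7.26 in wild-type ESC and at 11.4 and 8.87 in knockout ESC (0.61 ± 0.19, adjusted p = 0.290). Eno3 was at 4.10 and 5.42 in wild type and at 7.22 and 8.05 in knockout (0.59 ± 0.19, adjusted p = 0.290). Ankrd37, an ankyrin repeat gene induced by HIF, was at 2.29 and 4.02 in wild type and at 4.92 and 5.22 in knockout (0.58 ± 0.23, adjusted p = 0.367). For these 3 genes the knockout pair lay above the wild-type pair. Eno1 had overlapping groups (131 and 195 in wild type, 272 and 194 in knockout). P4ha2 was at 2.32 and 2.13 in wild type and 1.48 and 1.21 in knockout (-0.46 ± 0.17, adjusted p = 0.341), and Slc16a3 at 8.66 and 10.3 in wild type and 14.3 and 12.0 in knockout (0.43 ± 0.23, adjusted p = 0.489). Slc2a1 and Bnip3, the members with the largest falls in NPC, stood in ESC at 62.9 and 67.0 against 68.2 and 74.7, and at 5.30 and 6.61 against 5.87 and 6.67 (adjusted p = 0.795 and 0.914).

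**Figure D4:**
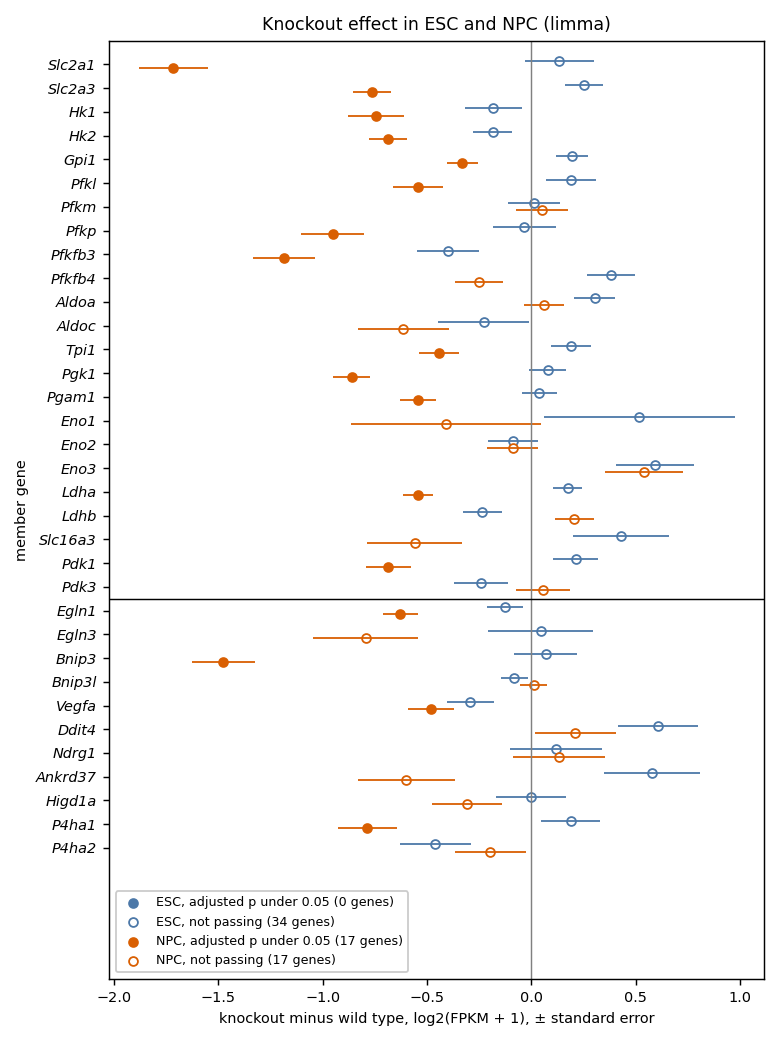
Knockout minus wild type for the 34 tested members in ESC (blue) and NPC (orange), as difference of log2(FPKM + 1) with bars of ± 1 standard error from limma; filled points have an adjusted p under 0.05. In NPC 17 points are filled and all lie left of 0, from -1.72 for Slc2a1 to -0.33 for Gpi1; in ESC none is filled.

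The difference between the knockout effects in NPC and ESC was tested directly. It passed for 16 members, all in the direction of a lower knockout effect in NPC, while 8.39% of all genes passed in that direction and 8.41% in the other. The median difference was -0.57 over the members and 0.06 over all genes. Among the members as listed, with Eno1 taken without Eno1b, the largest differences that passed were those of Slc2a1 (-1.85 ± 0.23, adjusted p = 0.00288), Bnip3 (-1.54 ± 0.21, adjusted p = 0.00404) and Slc2a3 (-1.02 ± 0.13, adjusted p = 0.00296). Next came P4ha1 (-0.97 ± 0.20, adjusted p = 0.0187), at 4.20 and 5.05 in wild-type ESC and 5.96 and 4.87 in knockout ESC. Ankrd37 (-1.18 ± 0.33, adjusted p = 0.0513; 3.91 and 5.17 in wild-type NPC, 2.21 and 3.11 in knockout NPC) and Slc16a3 (-0.99 ± 0.32, adjusted p = 0.0836) were as large but did not pass.

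The others that passed were Pgk1 (-0.94), Pfkp (-0.92), Pdk1 (-0.90), Pfkfb3 (-0.78), Pfkl (-0.74), Ldha (-0.72), Tpi1 (-0.63), Pfkfb4 (-0.63), Pgam1 (-0.58), Gpi1 (-0.53), Egln1 (-0.50) and Hk2 (-0.50), with adjusted p from 0.00371 for Pgk1 to 0.0451 for Pfkfb3. This count moved with single libraries. It was 8 (1 higher, Ldhb at 0.57, adjusted p = 0.0277, and 7 lower) without wild-type ESC replicate 1, and 7 without each of wild-type NPC replicate 2, knockout ESC replicate 1, knockout ESC replicate 2 and knockout NPC replicate 2. Over all 8 left-out libraries it was 7 to 12. Slc2a1, Slc2a3, Pgk1, Ldha, Pdk1 and Bnip3 passed in every alternative fit. For the other 10, the highest adjusted p with 1 library left out was 0.134 for Pfkfb3, 0.115 for Hk2, 0.112 for Pfkfb4, 0.107 for Egln1, 0.0929 for Pfkl and 0.0892 for Pfkp, and 0.0652 to 0.0720 for Gpi1, P4ha1, Pgam1 and Tpi1. Vegfa, which fell in knockout NPC, did not pass in this test (-0.19 ± 0.16, adjusted p = 0.468), nor did Hk1 (-0.56 ± 0.19, adjusted p = 0.0936). Pfkfb4 passed here although its knockout effect passed in neither stage (0.38 ± 0.11 in ESC and -0.25 ± 0.11 in NPC). Its ESC levels were low (mean 0.818 in wild type and 1.37 in knockout).

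Wild-type NPC and ESC were compared for the course of differentiation. The glycolysis members split, with 7 higher and 9 lower of 23, while 8 of 11 hypoxia response members were higher and 1, Ndrg1, was lower. Over all 34 members this made 15 higher and 10 lower, against 41.6% and 31.1% of all genes tested. The median change was -0.07 over the glycolysis members and 1.08 over the hypoxia response members, against 0.15 over all genes.

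The largest fall was that of Slc2a3, from 342 and 361 in wild-type ESC to 29.2 and 34.9 in wild-type NPC (-3.42 ± 0.09, adjusted p = 2.62e-07). Pfkp went from 31.3 and 32.1 to 5.94 and 4.06 (-2.46 ± 0.15, adjusted p = 7.38e-06). The wild-type ESC and NPC libraries of both genes lay far apart. Hk2 fell from 71.6 and 71.5 to 19.6 and 23.4 (-1.69), Pdk1 from 29.3 and 32.7 to 8.48 and 10.2 (-1.64) and Pgam1 from 394 and 378 to 157 and 166 (-1.26). Aldoa fell from 524 and 531 to 228 and 258 (-1.12) and Ldha from 558 and 566 to 290.5 and 304 (-0.92). The remaining members that fell were Ndrg1 (-0.86), Aldoc (-0.58) and Hk1 (-0.48).

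The largest rise was that of Vegfa, from 2.37 and 2.42 to 32.6 and 34.1 (3.34 ± 0.11, adjusted p = 6.09e-07). Ddit4 rose from 5.41 and 7.26 to 44.9 and 61.5 (2.88 ± 0.19, adjusted p = 1.06e-05), Bnip3 from 5.30 and 6.61 to 33.5 and 40.7 (2.45 ± 0.15, adjusted p = 7.25e-06) and Egln1 from 4.98 and 5.00 to 29.5 and 31.1 (2.39 ± 0.08, adjusted p = 7.60e-07). These are a growth factor, a stress regulator, a mitophagy gene and an oxygen sensor, all known HIF targets. Pfkfb3 (1.87), P4ha1 (1.59), Eno3 (1.27), Pfkfb4 (1.14), P4ha2 (1.08), Egln3 (1.06), Pfkm (1.03) and Bnip3l (1.01) also rose, and by less Tpi1 (0.50), Eno2 (0.41) and Gpi1 (0.27). Slc2a1 was at 62.9 and 67.0 in ESC and 69.3 and 94.8 in NPC and did not pass (0.32 ± 0.16, adjusted p = 0.121).

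The same comparison in knockout cells gave 14 higher and 16 lower members, against 41.6% and 28.8% of all genes. In the glycolysis members 14 fell and 7 rose, and in the hypoxia response members 2 fell (Ndrg1 and Ankrd37) and 7 rose. Slc2a3 fell from 428 and 409 in knockout ESC to 17.9 and 19.0 in knockout NPC (-4.43 ± 0.09, adjusted p = 1.36e-07). Pfkp fell from 31.8 and 30.1 to 2.25 and 1.89 (-3.38 ± 0.15), Pdk1 from 35.4 and 36.8 to 5.68 and 5.12 (-2.53 ± 0.11) and Hk2 from 65.0 and 60.7 to 13.1 and 12.7 (-2.20 ± 0.09). All 4 fell further than in wild type, which is the same contrast as the difference between the knockout effects (adjusted p = 0.00296, 0.0288, 0.00933 and 0.0408, those of Pfkp and Hk2 lost with single libraries left out, as given above). Vegfa rose from 1.71 and 1.83 to 26.0 and 21.4 (3.15 ± 0.11) and Ddit4 from 11.4 and 8.87 to 64.0 and 58.2 (2.48 ± 0.19).

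Slc2a1, Pgk1, Pfkl, Ankrd37, Eno1, Ldhb and Pdk3 passed in knockout cells and had not passed in wild type. Tpi1 and Egln3 passed only in wild type. Passing in 1 genotype only is no test of a difference between genotypes. The limma test of the difference between the knockout effects did not pass for Ankrd37 (adjusted p = 0.0513), Eno1 alone (0.377), Ldhb (0.0673), Pdk3 (0.320) or Egln3 (0.158). It passed for Slc2a1, Pgk1, Pfkl and Tpi1, as given above. Slc2a1 fell from 68.2 and 74.7 to 21.2 and 27.1 (-1.53 ± 0.16, adjusted p = 1.26e-04), where the wild-type groups stood at 62.9 and 67.0 and at 69.3 and 94.8. Pgk1 fell from 359 and 370.5 to 172 and 157 (-1.15 ± 0.09, adjusted p = 2.58e-05), as did Pfkl (-0.74 ± 0.12, adjusted p = 0.00106). Bnip3 rose from 5.87 and 6.67 to 13.9 and 11.5 (0.91 ± 0.15, adjusted p = 0.00121), less than in wild type (the difference given above, adjusted p = 0.00404). Ldha (-1.64), Pgam1 (-1.84), Aldoa (-1.36), Hk1 (-1.04), Aldoc (-0.97), Ndrg1 (-0.85) and Gpi1 (-0.25) fell too, with Ankrd37 (-0.74) and the uncertain single entry of Eno1 (-1.49; -1.70 for its sum with Eno1b). Egln1 (1.88), P4ha2 (1.35), Eno3 (1.22), Bnip3l (1.10), Pfkfb3 (1.08), Pfkm (1.07), P4ha1 (0.62), Pfkfb4 (0.51), Pdk3 (0.44), Eno2 (0.41) and Ldhb (0.37) rose.

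Median-ratio scaling moved the median change of all genes by -0.12 in wild type and -0.17 in knockout, so small rises on differentiation depend on the scale. With it the counts became 13 higher and 11 lower in wild type (Eno2 and Gpi1 lost, Pgk1 gained as lower) and 11 higher and 19 lower in knockout (Eno2, Ldhb and Pdk3 lost, Higd1a, Slc16a3 and Tpi1 gained as lower). Single libraries also decided some calls. In wild type, Aldoc was lost without ESC replicate 1 or 2 or NPC replicate 1 (adjusted p = 0.0713, 0.169 and 0.206), Eno2 without the same libraries (0.0506, 0.0733 and 0.0727), Gpi1 without ESC replicate 1 or NPC replicate 2 (0.0662 and 0.0789), Hk1 without ESC replicate 2 or NPC replicate 1 (0.0723 and 0.0752) and Ndrg1 without NPC replicate 2 (0.0573). Members that did not pass but did without 1 wild-type library were Ankrd37 and Higd1a as higher without ESC replicate 2 (0.0237 and 0.0293), Slc2a1 as higher without NPC replicate 1 (0.0203) and Pgk1 as lower without NPC replicate 2 (0.0332). Slc16a3 passed as higher without either knockout NPC library (0.0438 and 0.0429), through the shared estimate of spread.

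In knockout, Ankrd37 was lost without ESC replicate 1 or 2 or NPC replicate 1 (adjusted p = 0.0657, 0.0885 and 0.126), Eno1 without ESC replicate 1 or NPC replicate 1 (0.104 and 0.0996) and Eno2 without ESC replicate 2 or NPC replicate 1 (0.104 and 0.0860). Gpi1, which rose in wild type and fell in knockout, was lost without ESC replicate 2 or NPC replicate 2 (0.106 and 0.113). Ldhb was lost without ESC replicate 1 or NPC replicate 1 (0.0558 and 0.0582), Ndrg1 without the same libraries (0.0664 and 0.0617) and Pdk3 without ESC replicate 1 or NPC replicate 2 (0.1003 and 0.0997). Slc16a3 passed as lower without NPC replicate 1 (0.00457), and Higd1a as lower without either wild-type ESC library (0.0389 and 0.0405).

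The isozyme make-up of each step was computed as a share of the summed FPKM of its members and is given as a description. Slc2a1 made up 15.6% of the Slc2a1 and Slc2a3 sum in wild-type ESC, 14.6% in knockout ESC, 71.7% in wild-type NPC and 56.5% in knockout NPC, while the sum itself was 416, 490.1, 114 and 42.6. Of the phosphofructokinase genes, Pfkp held 49.7% in wild-type ESC, 11.3% in wild-type NPC and 6.15% in knockout NPC. Pfkm, which did not pass in knockout NPC, held 9.52%, 30.2% and 41.6%. In NPC, Pfkl and Pfkm thus made up most of the phosphofructokinase RNA. Ldha held 81.7% of the lactate dehydrogenase sum in wild-type ESC, 85.6% in knockout ESC, 71.2% in wild-type NPC and 59.5% in knockout NPC. Pdk1 held 64.0%, 71.2%, 32.5% and 21.2% of the Pdk1 and Pdk3 sum in the same order. The hexokinase share of Hk2 was 77.0% and 79.1% in wild-type and knockout NPC, and Aldoa held over 99% of the aldolase sum in every group.

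**Figure D5:**
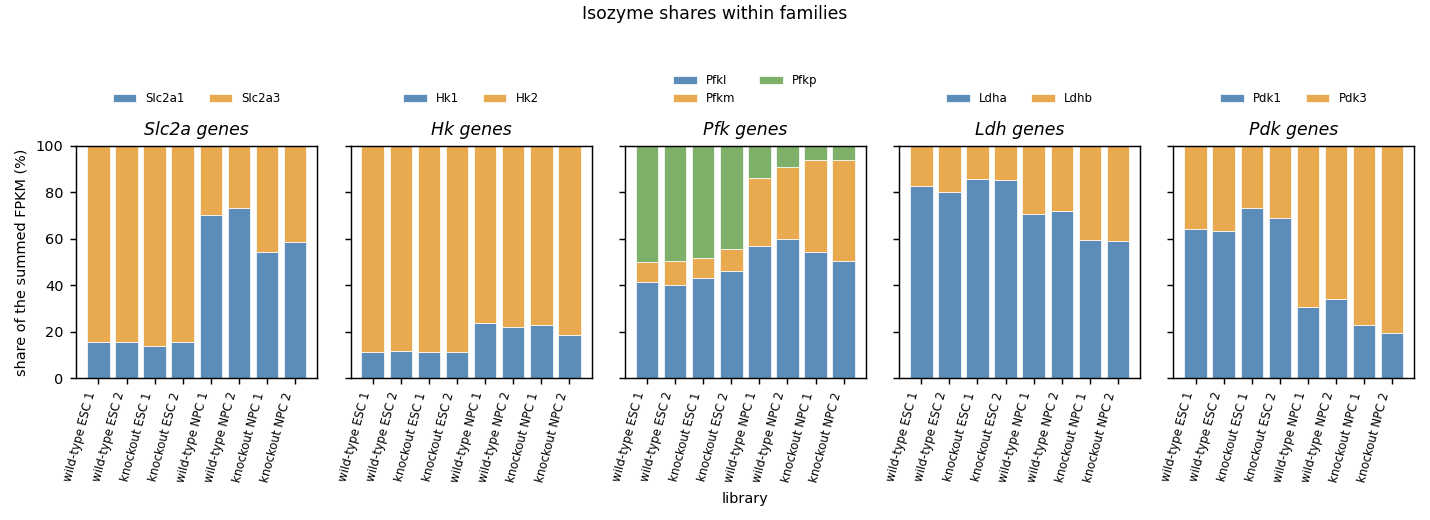
Stacked bars give the share (%) of each gene in the summed FPKM of its family, per library, from 0 to 100%. The share of Slc2a1 is higher in all NPC libraries than in all ESC libraries, and in NPC the shares of Ldha, Pdk1 and Pfkp are lower in both knockout libraries than in both wild-type libraries.

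Other genes of the same pathways were read from lists chosen with earlier results known. Of 13 further glycolysis genes tested, 5 fell and 2 rose in knockout NPC, against 12.7% and 14.7% of all genes tested. The 2 that rose are near the share of all genes. Pkm, the pyruvate kinase of most tissues, was at 454 and 464 in wild type and 381 and 364 in knockout (-0.30 ± 0.07, adjusted p = 0.0154). Gapdh, which lies between the aldolase and Pgk1 steps, was at 2157 and 2240.5 in wild type and 2041 and 1923 in knockout and did not pass (-0.15 ± 0.10, adjusted p = 0.301). The largest changes were those of the low-level hexokinase Hk3 (-1.08), the insulin-responsive transporter Slc2a4 (1.04) and Pfkfb1 (0.81). Hk3 reached an FPKM of 1 only in wild-type NPC (1.08 and 1.43), against 0 and 0.120 in knockout NPC and 0 in ESC. It entered the test through that group alone, so its fall was favoured in advance and carries little weight. Tigar (-0.60), Bpgm (-0.46) and the lactate transporter Slc16a1 (-0.42) fell as well. Bpgm was lost with no filter on low values (adjusted p = 0.0507), with the replicate block (0.0510), with only the NPC groups in the fit (0.0585), without wild-type NPC replicate 2 (0.164) and without knockout NPC replicate 2 (0.155). Slc2a4 was lost with a pseudocount of 0.1 (0.0796), without wild-type NPC replicate 1 (0.0522) and without knockout NPC replicate 2 (0.0525). Pkm was lost without each of the 4 NPC libraries in turn (0.0563 to 0.0960), and Pfkfb1 without wild-type NPC replicate 2 or either knockout NPC library (0.0525 to 0.0651). The count was 4 without wild-type NPC replicate 1 and 3 without wild-type NPC replicate 2 or knockout NPC replicate 2.

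None of 8 further genes that form and control HIF passed as lower in knockout NPC, against 12.7% of all genes tested. With only 8 genes, none lower is near that share and says little about HIF genes. The prolyl hydroxylases Egln1 and Egln3, which also control HIF, are counted among the members above, and Egln1 fell (-0.63). Hif1a was at 32.3 and 27.9 in wild-type NPC and at 36.6 and 33.5 in knockout NPC (0.22 ± 0.10, adjusted p = 0.150), and Epas1, which encodes HIF-2 alpha, at 0.954 and 0.532 and at 1.55 and 0.970 (0.37 ± 0.19, adjusted p = 0.197). Vhl had a change of -0.11 ± 0.11 (adjusted p = 0.482). Of the 8 genes of this list, 3 rose, against 14.7% of all genes tested. They were Hif3a (0.80), the prolyl hydroxylase Egln2 (0.56) and Arnt (0.38 ± 0.11, adjusted p = 0.0423). Egln2 passed in each of the 16 alternative fits. Arnt was lost in 10 of them, which were no filter on low values (adjusted p = 0.0587), median-ratio scaling (0.0824), the replicate block (0.0643), only the NPC groups (0.0557) and each of the 4 NPC and 2 knockout ESC libraries left out (0.0592 to 0.183). Hif3a was lost without wild-type NPC replicate 2 (0.0748) and without knockout NPC replicate 1 (0.0873), and the count was then 1 in each case. RNA levels do not give the amount of HIF protein, which was not measured here.

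Of 21 further hypoxia targets tested, 5 fell and 2 rose in knockout NPC, against 12.7% and 14.7% of all genes tested. Fewer passed without knockout NPC replicate 2. The adenylate kinase gene Ak4 was at 4.90 and 6.19 in wild type and 2.02 and 1.63 in knockout (-1.21 ± 0.12, adjusted p = 4.99e-04), and Mxi1, a repressor of the MYC network, fell by 0.85. Bhlhe40 (-0.72), the glycogen synthase Gys1 (-0.43) and the histone demethylase Kdm3a (-0.31) fell, and Zfp395 rose (0.57). Gys1 was lost without wild-type NPC replicate 2 (adjusted p = 0.0839) or either knockout NPC library (0.0521 and 0.0774), and Kdm3a without knockout NPC replicate 2 (0.0547). Bhlhe40 was lost without wild-type or knockout NPC replicate 2 (0.0608 and 0.0554), and Zfp395 without wild-type or knockout NPC replicate 1 (0.0854 and 0.0991). Angptl4, a secreted inhibitor of lipoprotein lipase, also rose, from 2.89 and 1.29 to 11.7 and 7.25 (1.78 ± 0.29, adjusted p = 0.00401). The list thus had members on both sides, with a median change of -0.07. Of 22 genes from pyruvate import to the citric acid cycle, Sdhd rose (0.25) and Pdha1 fell (-0.19), and none passed without either wild-type ESC library, wild-type NPC replicate 2, or any 1 of the 4 knockout libraries. In ESC no gene of these 4 lists passed in knockout against wild type (0, 0, 5 and 0 had an unadjusted p under 0.05).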

How the data were processed

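Poly(A) RNA was sequenced with a directional kit in 8 libraries, 2 per group. Per the submitters' processing notes, TopHat2 2.1.1, Cufflinks 2.2.1 and the mm9 build were used. The authors deposited 1 table per library with FPKM per gene and its confidence interval, and no counts. Entries that shared a symbol were summed. Fragments of a gene were inferred from the upper confidence bound. The 13318 genes that reached FPKM 1 in 2 or more libraries entered a limma fit (limma 3.58.1, R 4.3.3) of log2(FPKM + 1). It had 1 mean per group, a trend of variance on level and 4 residual degrees of freedom. Tests were two-sided, adjusted by Benjamini-Hochberg per contrast with a threshold of 0.05. The fit was tested on simulated data. Promoter sequences came from a RefSeq table on GRCm38.p6.

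The 35 members, the lists of other genes and the tests were chosen with earlier results of these data known. Every member is accounted for. Values per library are given for the 10 members with the smallest adjusted p in the NPC knockout contrast and the 6 with the largest change in each other contrast. Of the other lists, up to 3 genes per contrast and Hif1a, Epas1, Arnt, Vhl, Gapdh and Pkm are named by rule, and Tigar, Bpgm, Slc16a1, Bhlhe40, Gys1, Kdm3a and Zfp395 were named after their values were seen. Other settings tried were median-ratio scaling, a minimum FPKM of 5 or none, 0.1 as pseudocount, the entry with the highest level for each symbol, fits of single contrasts, a replicate block, leaving each library out and, chosen after seeing the data, Eno1 summed with Eno1b.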

Additional observations from a re-analysis of the deposited data

Results flagged for a closer look

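The difference between the knockout effects in NPC and in ESC, a test with limma on the log2(FPKM + 1) scale, passed for 16 of 34 members and 13 other genes of the same pathways. Over all genes tested, 8.41% passed as higher and 8.39% as lower. The 13 were 1 higher and 4 lower of 13 further glycolysis genes, 1 higher of 8 HIF genes, and 1 higher and 6 lower of 21 further hypoxia targets. None of the 22 genes from pyruvate import to the citric acid cycle passed. For the members the values were -1.85 for Slc2a1, -1.54 for Bnip3, -1.02 for Slc2a3, -0.97 for P4ha1, -0.94 for Pgk1, -0.92 for Pfkp, -0.90 for Pdk1 and -0.78 for Pfkfb3. They were -0.74 for Pfkl, -0.72 for Ldha, -0.63 for Tpi1, -0.63 for Pfkfb4, -0.58 for Pgam1, -0.53 for Gpi1, -0.50 for Egln1 and -0.50 for Hk2.

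Among the other genes, it was -1.53 for Ak4, -1.08 for Hk3, -0.86 for Bhlhe40, -0.76 for Mxi1, -0.67 for Bpgm, -0.65 for Mif, -0.55 for Tigar, -0.48 for Gys1, -0.46 for Kdm3a and -0.43 for Pkm. It was positive for Angptl4 (1.85), Slc2a4 (1.09) and Egln2 (0.63). Ak4, Kdm3a and Hk3 passed in every alternative fit that tested them, though Hk3 met the FPKM filter only through wild-type NPC, which favoured a negative value. The other 10 depended on single libraries. Angptl4, Bhlhe40, Egln2, Mxi1, Pkm and Tigar were each lost with 6 of the 8 libraries left out in turn (highest adjusted p from 0.0676 for Tigar to 0.0879 for Bhlhe40). Bpgm was lost in 9 of 15 alternatives (highest adjusted p = 0.124), Mif in 8 (0.139), Slc2a4 in 10 (0.180) and Gys1 in 11 (0.141), and for these 4 a pseudocount of 0.1 was among them. The test of outlying libraries needs larger groups than 2 and was not applied.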

How the results depend on the processing

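No member passed in ESC under any alternative, and no member that passed in any comparison changed direction under an alternative. In NPC, knockout against wild type, 12 to 19 members passed with 1 library left out, and 17 or 18 under the other settings. On differentiation, 22 to 26 passed in wild type and 25 to 31 in knockout with 1 library left out. The count for the difference between the knockout effects was 7 to 12 with 1 library left out, against 16, and 12 to 17 otherwise.

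The replicate numbers are not stated to pair libraries, and the deviations of same-numbered libraries correlated at -0.05 to 0.18 over 6 pairs of groups. With a replicate block, 0 members passed in ESC, 18 in NPC (Ankrd37 added), 26 and 30 on differentiation and 13 for the difference. Over all genes, the count in ESC was 33, 15 with the block and between 8 and 16 when single ESC or knockout NPC libraries were left out. In NPC it was 3648, and between 1994 and 2275 without single NPC libraries. For the difference it was 2237, and between 1072 and 1480 with any library left out.

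With 2 libraries per group and 4 residual degrees of freedom, the sizes of change that can pass are limited. The tables hold no counts, so no count model was fitted.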

Other observations

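The citric acid cycle list was mostly lower on differentiation. In wild type 12 of its 22 genes fell and 3 rose, and in knockout 12 fell and 5 rose. Over all genes tested, 31.1% fell and 41.6% rose in wild type, and 28.8% fell and 41.6% rose in knockout. The largest falls in wild type were those of Pdha1, the catalytic subunit of pyruvate dehydrogenase (-1.27 ± 0.06, adjusted p = 2.02e-06), at 124 and 126 in ESC and 52.5 and 49.9 in NPC, and Idh3a, a subunit of isocitrate dehydrogenase (-1.19 ± 0.10). Mpc2, a subunit of the mitochondrial pyruvate carrier, rose (0.93 ± 0.17). The median change of the list was -0.30 in wild type and -0.24 in knockout, against 0.15 and 0.17 over all genes.

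Among the genes that control HIF, Arnt2, the neural partner subunit, rose from 0.782 and 0.651 in wild-type ESC to 13.5 and 12.3 in wild-type NPC (3.02 ± 0.13, adjusted p = 1.72e-06). In knockout it went from 0.903 and 0.637 to 10.01 and 11.5 (2.73 ± 0.13). Hif1a did not pass in wild type (-0.01 ± 0.10) and rose in knockout (0.38 ± 0.10, adjusted p = 0.0103). That rise was lost with median-ratio scaling (0.19, adjusted p = 0.122), without knockout ESC replicate 2 (adjusted p = 0.0640) and without knockout NPC replicate 1 (adjusted p = 0.0640), and the difference between wild type and knockout did not pass (0.39 ± 0.14, adjusted p = 0.102). Of the further hypoxia targets, Ccng2, a cyclin G gene, rose from 1.26 and 1.23 to 27.2 and 30.1 in wild type (3.72 ± 0.09, adjusted p = 2.21e-07), while Ak4 fell from 35.7 and 35.6 to 4.90 and 6.19 (-2.49 ± 0.12). In this list 11 of 21 genes rose and 5 fell in wild type, and 10 rose and 5 fell in knockout, where the shares of all genes were those given above for the citric acid cycle list.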
